A study of Mus musculus with 18 samples.

Results

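The Hoxa genes described here are Hoxa2, Hoxa3, Hoxa4, Hoxa5, Hoxa6, Hoxa7, Hoxa9 and Hoxa10. They were taken by name from the deposited table of mouse bone marrow cells and make up 8 of its 32285 genes. The table also holds 28 genes of the Hoxb, Hoxc and Hoxd clusters. Expression was measured by poly(A)-selected RNA-seq in 18 libraries, 3 in each of 6 groups, of sorted CD45.2+ iLS cells from C57BL/6 bone marrow. BN1 cells carried BRD9-NUTM1, AFFN1 cells carried AFF1-NUTM1, and control cells, called Mock in the day 6 descriptions, had the genotype CD45.2(+) with no fusion named. Each of these kinds was profiled on day 6 and on day 14. BRD9 is a subunit of a chromatin remodelling complex, AFF1 is a transcription elongation factor, and NUTM1 is a gene normally active in the testis. All groups share the CD45.2 marker and the strain. How the fusions were introduced, and whether the libraries came from separate animals or cultures, is not given in the sources used here. The day 6 and day 14 libraries follow different naming schemes, so day and experiment cannot be told apart.

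Hox genes encode homeodomain transcription factors and lie in clusters whose gene order follows the order of their use along the body axis. In blood formation, genes from the middle of the Hoxa cluster are active in stem cells and early progenitors and are shut down as cells mature. Polycomb proteins keep the cluster silent, trithorax proteins keep it active, and the TALE proteins of the Meis and Pbx families bind DNA together with Hox proteins. High Hoxa9 and Meis1 are known features of several leukemias, those with rearranged KMT2A among them.

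Libraries held 14.2 to 17.7 times 1e6 reads on day 6 and 17.8 to 18.4 times 1e6 on day 14. The sorted cells had B-lineage transcripts throughout, with 554 to 1251 counts per 1e6 counts (CPM) of Pax5, a B-lineage transcription factor, and 185 to 407 CPM of Ptprc, which encodes CD45. Of 8 myeloid markers, 5 stayed under 1 CPM in every library, with at most 0.0681 CPM of the granule enzyme Mpo. Lyz2, a lysozyme of myeloid cells, was at 14.5 to 133 CPM and Itgam, a myeloid integrin, at 1.81 to 18.2 CPM. Of 8 T and NK markers, 5 stayed under 1 CPM, with at most 0.0642 CPM of the T-cell receptor subunit Cd3e. Nkg7, a granule protein of killer cells, was at 4.97 to 48.5 CPM and Trac, a T-cell receptor constant gene, at 0.448 to 17.6 CPM. Of 8 erythroid and megakaryocyte markers 7 stayed under 1 CPM, as did 4 of 8 stem and progenitor markers, with at most 0.0547 CPM of the stem cell factor Hlf, and 2 of 8 stromal markers. Ly6a, which encodes the progenitor marker Sca-1, was at 960 CPM or more in all day 6 libraries. On day 14 it was at 1168 CPM in AFFN1 1 and 1068 CPM in control 1, against 25.3 to 181 CPM in the other day 14 libraries. In such sorted populations, fewer expressing cells and less RNA per cell cannot be told apart.

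On day 6, 2 positions of the cluster, Hoxa7 and Hoxa9, went to levels above 7 CPM in both fusions, and Hoxa5 was at 0.851 CPM or more. Reads were found at all 8 positions in both fusions and at 5 in control cells. On day 14 nearly all reads were again from Hoxa7 and Hoxa9, in all groups including control, and the levels of both genes in fusion libraries overlapped those in control libraries. Hoxa7 and Hoxa9 together made up 91.0% of the reads of the 8 genes in BN1, 89.1% in AFFN1 and 89.8% in control on day 6. On day 14 the same share was 88.5% in BN1, 95.7% in AFFN1 and 91.2% in control.

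**Figure D1:**
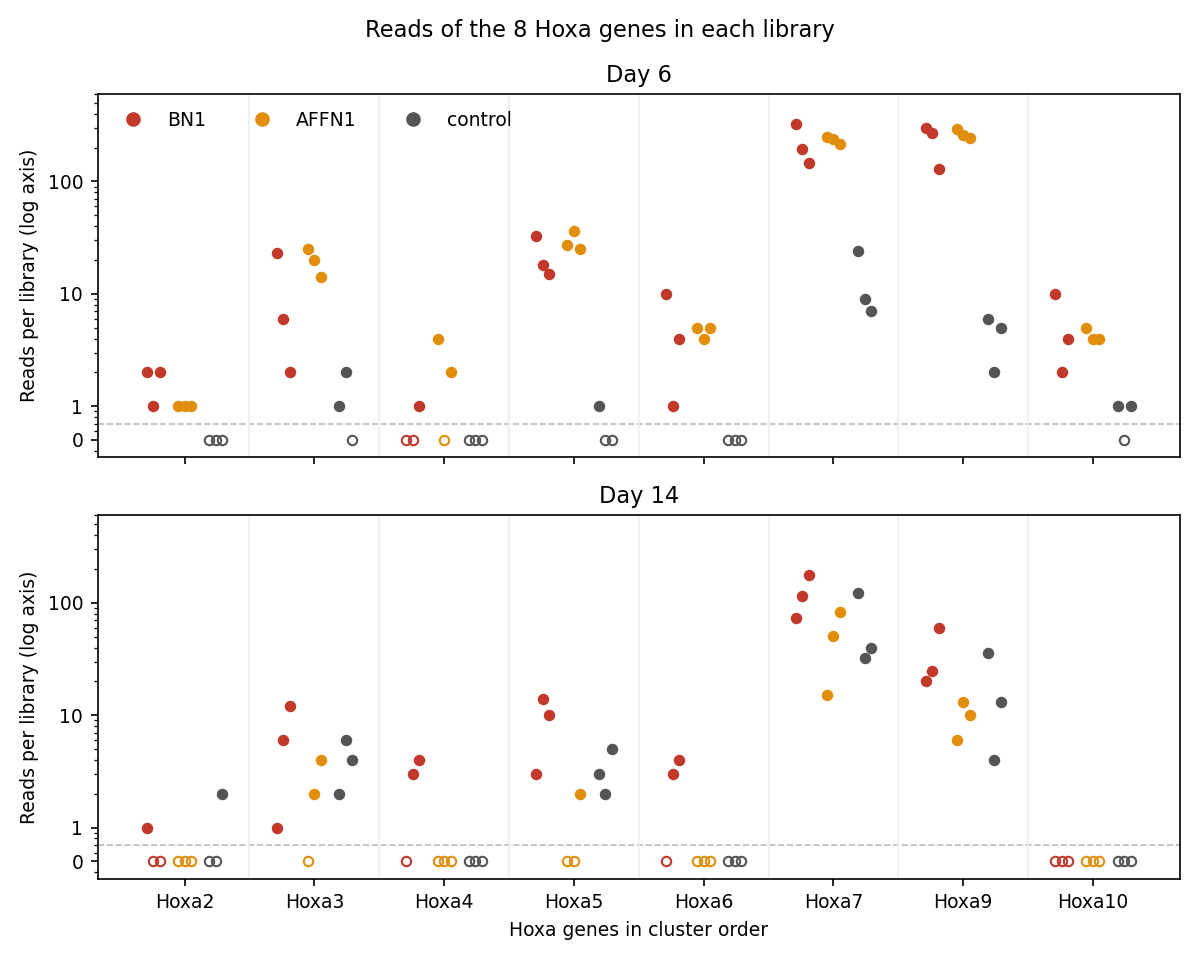
Reads per library of the 8 Hoxa genes, in the order in which they lie along chromosome 6, on day 6 (top) and day 14 (bottom). Each point is 1 library, the axis is logarithmic, and open circles under the dashed line are libraries with 0 reads. Hoxa7 and Hoxa9 carry most reads in every group, and on day 6 the control libraries have 7 to 24 reads of Hoxa7 and 2 to 6 of Hoxa9.

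Hoxa9, a homeodomain factor of stem and progenitor cells, had 15.2, 15.5 and 7.31 CPM in the BN1 libraries of day 6. It had 17.2, 13.7 and 13.3 CPM in AFFN1, against 0.336, 0.128 and 0.250 CPM in control, which stand for 6, 2 and 5 reads. Every fusion library was above every control library, and BN1 3 was the lowest of the fusion libraries. The gene lies on mm10 chromosome 6 from 52223100 to 52231089, on the minus strand. It was 50.5-fold higher in BN1 than in control (log2 fold change 5.66, SE 0.40, adjusted p = 1.3e-05, edgeR) and 5.88 higher on the log2 scale in AFFN1 (SE 0.40, adjusted p = 2.73e-05).

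Hoxa7 (chromosome 6, 52214491 to 52221854), the neighbour of Hoxa9 on the side of lower numbers, had 16.6, 11.2 and 8.22 CPM in BN1. It had 14.6, 12.7 and 11.7 CPM in AFFN1, against 1.34, 0.578 and 0.35 CPM in control. The groups did not overlap, and control cells held more Hoxa7 than Hoxa9 reads on day 6, with 40 against 13 in all. The log2 fold change was 3.97 in BN1 (SE 0.41, adjusted p = 0.000144) and 4.09 in AFFN1 (SE 0.41, adjusted p = 0.00024). Without control 1, which had the most reads of the control libraries, these values were 4.70 and 4.82. Of the exon bases of Hoxa7, 20.4% overlap the antisense transcript Hoxaas3, and the strand setting of the counting is not given in the sources used here. Hoxaas3 itself had 13 reads over all 18 libraries.

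Hoxa5 (chromosome 6, 52201754 to 52204587), a homeodomain factor known for its role in lung development, had 33, 18 and 15 reads in BN1. It had 27, 36 and 25 reads in AFFN1, against 1, 0 and 0 in control. Its level was 1.68, 1.03 and 0.851 CPM in BN1 and 1.59, 1.89 and 1.37 CPM in AFFN1. Both fusions were above control in every library, and the edgeR test called Hoxa5 higher in BN1 (adjusted p = 0.000499) and in AFFN1 (adjusted p = 0.000438). With a single control read, the ratio of scaled reads was 64.5 in BN1 (95% counting interval 11.2 to 2585) and 86.7 in AFFN1 (15.2 to 3462). Without control 1, the library that holds this read, both calls held (adjusted p = 0.00273 in BN1 and 0.00266 in AFFN1).

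Hoxa3 (chromosome 6, 52169062 to 52213336), known for its part in thymus and parathyroid development, had 23, 6 and 2 reads in BN1, 25, 20 and 14 in AFFN1 and 1, 2 and 0 in control. AFFN1 stood apart from control, whereas BN1 3 had no more reads than control 2. The rise passed the test in AFFN1 (log2 fold change 4.11, SE 0.96, adjusted p = 0.0187). In BN1 the log2 fold change was 3.13 (SE 1.03, adjusted p = 0.0622). The ratio of scaled reads was 10.1 in BN1 (3.15 to 51.6) and 19.4 in AFFN1 (6.31 to 96.6). The AFFN1 call, and the lack of one in BN1, hung on single libraries. The AFFN1 value had adjusted p of 0.0706 without AFFN1 1, 0.0549 without AFFN1 2 and 0.0736 without control 1. The AFFN1 log2 fold change was 5.05 without control 2 and 3.51 without control 3. In BN1 it was 1.87 (adjusted p = 0.284) without BN1 1, which holds 23 of the 31 reads, 4.08 without control 2 and 2.54 without control 3. Without BN1 3 it was called (3.60, adjusted p = 0.0288). Of the exon bases of Hoxa3, 25.4% overlap transcripts on the opposite strand.

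The remaining members were too low for the test on day 6, and their reads are given as counted. Hoxa6 had 10, 1 and 4 reads in BN1, 5, 4 and 5 in AFFN1 and none in the 3 control libraries. Against the floor of 3 reads over the control group, it was 4.89-fold higher in BN1 and 4.60-fold higher in AFFN1. With no filter, edgeR called Hoxa6 higher in BN1 (adjusted p = 0.0323) and in AFFN1 (adjusted p = 0.0424). That fit called none of Hoxa2, Hoxa4 and Hoxa10 in either fusion. Hoxa10, a neighbour of Hoxa9 that is also active in progenitors, had 10, 2 and 4 reads in BN1 and 5, 4 and 4 in AFFN1, against 1, 0 and 1 in control. The ratio of scaled reads was 7.82 in BN1 (1.84 to 70.1) and 6.4 in AFFN1 (1.45 to 58.4), intervals that stay above 1 and cover counting error only. Hoxa2, a hindbrain patterning gene, had 2, 1 and 2 reads in BN1 and 1 in each AFFN1 library, against 0 in control. Hoxa4 had 1 read in BN1, 6 in AFFN1 and 0 in control. Neither gene reached 5 reads in any library. Beyond Hoxa10, Hoxa11 had 0 reads and Hoxa13 had 1 read in all 18 libraries. Among the non-coding transcripts of the cluster, Hotairm1 had 19 reads, Hoxaas3 had 13, Hoxaas2 had 10 and Gm15050 had 5 over the 18 libraries. Hoxa11os, Hottip, Gm29430 and Evx1os had none, nor had the neighbouring homeobox gene Evx1.

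Of the 8 genes, 4 passed the filter on low counts on day 6. Of these 4, BN1 had 3 higher and 0 lower than control, where 8.83% of all tested genes were called higher. AFFN1 had 4 higher and 0 lower, where 7.79% of all tested genes were called higher. The median log2 fold change of the 4 was 4.76 in BN1 and 4.99 in AFFN1, beside -0.02 over all tested genes in each. With control levels this low, the 4 genes passed the filter through the fusion libraries and had to differ, so these counts and medians are descriptions. The BN1 and AFFN1 comparisons share the control libraries.

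Markers of other cell types also differed on day 6. In BN1, 2 of 3 tested T and NK markers were higher than in control, Trac with a log2 fold change of 2.20 and Nkg7 with 0.87. The summed level of the 8 T and NK markers was 52.2 to 58.2 CPM in BN1 and 17.9 to 42.6 CPM in control. In AFFN1, Itgam was higher (1.02, 1 of 3 tested myeloid markers), as were the erythroid factor Gata1 (2.13, the 1 tested of its list) and Ly6a (0.62, adjusted p = 0.00196). The summed level of the 8 myeloid markers was 77.0 to 87.0 CPM in AFFN1 and 57.1 to 149.9 CPM in control, and that of the erythroid and megakaryocyte markers 0.884 to 1.48 CPM in AFFN1 and 0.615 to 0.835 CPM in control. The stem and progenitor markers summed to 1632 to 1940 CPM in AFFN1 and 1234 to 1287 CPM in control. Their part in the Hoxa values was not tested.

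Between BN1 and AFFN1 none of the 4 was called by edgeR or by DESeq2, and none had an unadjusted p under 0.05, where 11.2% of all tested genes were called in either direction. The log2 differences, BN1 minus AFFN1, were -0.98 (SE 0.66) for Hoxa3, -0.44 (SE 0.38) for Hoxa5, -0.12 (SE 0.32) for Hoxa7 and -0.22 (SE 0.26) for Hoxa9.

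**Figure D2:**
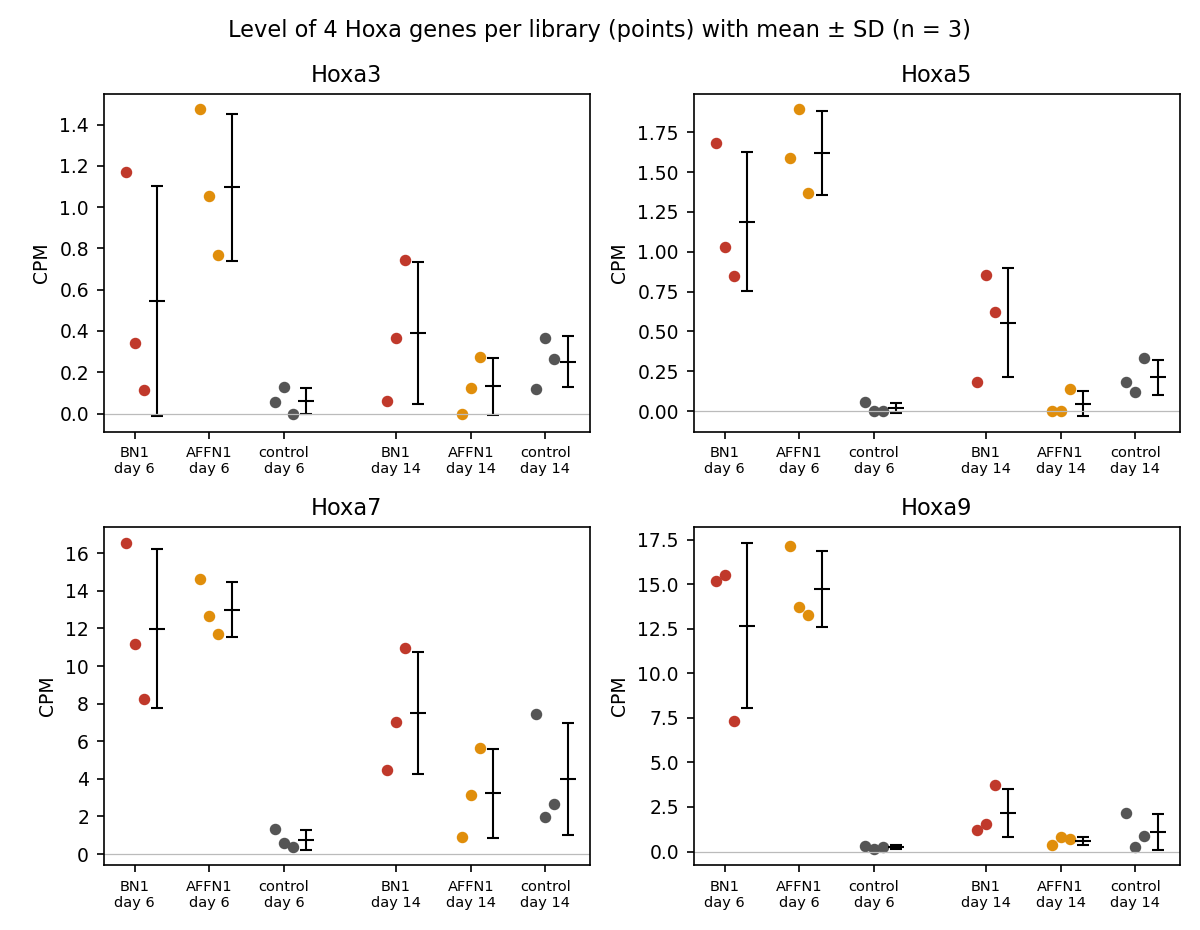
Level in CPM of the 4 Hoxa genes with the most reads. Points are libraries, and the bars beside them give the mean ± SD (n = 3). On day 6 the control libraries of Hoxa9 stay at or under 0.336 CPM and those of Hoxa7 at or under 1.34 CPM, and on day 14 the 3 groups of Hoxa7 overlap.

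Promoter windows of Hoxa5, Hoxa7 and Hoxa9 are shown because these members were called in both fusions on day 6. Each window runs from 250 bases before to 50 bases after the RefSeq start, on GRCm38.p6, and is printed 5′ to 3′ on the minus strand with every CpG in capitals. The windows are chr6:52204538-52204837 for Hoxa5, chr6:52218524-52218823 for Hoxa7 and chr6:52227321-52227620 for Hoxa9.
Hoxa5: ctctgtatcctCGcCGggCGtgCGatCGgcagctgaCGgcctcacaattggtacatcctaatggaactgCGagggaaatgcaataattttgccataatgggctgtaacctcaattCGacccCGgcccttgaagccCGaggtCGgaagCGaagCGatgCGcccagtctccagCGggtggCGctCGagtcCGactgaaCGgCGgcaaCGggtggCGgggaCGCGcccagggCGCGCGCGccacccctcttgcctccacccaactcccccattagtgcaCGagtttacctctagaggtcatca
Hoxa7: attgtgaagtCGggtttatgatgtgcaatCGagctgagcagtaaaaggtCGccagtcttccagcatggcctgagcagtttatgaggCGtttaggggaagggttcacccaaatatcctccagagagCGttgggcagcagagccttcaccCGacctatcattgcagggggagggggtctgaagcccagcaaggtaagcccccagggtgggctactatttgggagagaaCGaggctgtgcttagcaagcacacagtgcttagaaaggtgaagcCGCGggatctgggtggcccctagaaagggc
Hoxa9: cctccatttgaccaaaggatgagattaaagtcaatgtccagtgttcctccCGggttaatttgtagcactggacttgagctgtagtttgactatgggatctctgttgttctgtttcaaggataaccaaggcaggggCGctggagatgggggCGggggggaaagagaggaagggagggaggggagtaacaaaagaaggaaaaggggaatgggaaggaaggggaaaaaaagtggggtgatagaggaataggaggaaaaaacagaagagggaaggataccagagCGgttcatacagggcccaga
The 3 windows differ in CpG content, with 29 CpG in Hoxa5, 9 in Hoxa7 and 4 in Hoxa9, against a median of 7 over 32851 mouse promoters of the same length. The GC content was 61.7%, 55.7% and 49.7% in the same order. For 7 of the 8 members the RefSeq table gave a window, and Hoxa10 had 2. Over these, CpG counts ran from 4 in Hoxa9 to 29 in Hoxa5, with 26 in Hoxa6, 20 in Hoxa3 and 9 in Hoxa2. The letters CCAAT, searched on both strands, were found in the windows of Hoxa2, Hoxa5, Hoxa6 and Hoxa10, and in 37.4% of all promoters. TGACAG, the core letters bound by Meis proteins, was found in Hoxa2 and Hoxa3 and in 19.2% of all promoters. TGATNNAT, letters of joint Hox and Pbx sites, was found in Hoxa2 and in 8.85%, and TATAAA in Hoxa10 and in 13.6%. None of the 4 was found in the windows of Hoxa7 and Hoxa9. These are matches of letters in windows of 300 bases and say nothing about binding. The start used for the Hoxa7 window lies 138 bases from the nearest transcript start of GENCODE M21. Hoxa7 and Hoxa9 have 5 annotated transcripts each and Hoxa5 has 1. Which start was in use in these cells was not tested, so the windows need not be the active promoters.

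On day 14, control cells were no longer the low group. Hoxa7 had 4.5, 7.04 and 11.0 CPM in BN1 and 0.909, 3.14 and 5.65 CPM in AFFN1, against 7.43, 1.95 and 2.65 CPM in control. BN1 and control overlapped, as did AFFN1 and control, and control 1 was above both other control libraries. The log2 fold change against control was 0.88 in BN1 (SE 0.67, adjusted p = 0.497) and -0.34 in AFFN1 (SE 0.68, adjusted p = 0.963). Without control 1 the BN1 value was 1.70 and the AFFN1 value 0.48, and without BN1 3 the BN1 value was 0.51.

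Hoxa9 had 1.22, 1.53 and 3.72 CPM in BN1 and 0.364, 0.799 and 0.681 CPM in AFFN1, against 2.18, 0.244 and 0.862 CPM in control. Control 1 was above 2 of the BN1 libraries, and all BN1 libraries were above all AFFN1 libraries. The log2 fold change was 0.95 in BN1 against control (SE 0.71, adjusted p = 0.486) and -0.85 in AFFN1 against control (SE 0.76, adjusted p = 0.902). Without control 1 these values were 1.95 and 0.16, and the BN1 value was 0.31 without BN1 3 and 0.49 without control 2. In BN1 against AFFN1 it was 1.79 (SE 0.75), with an unadjusted p of 0.0374 and an adjusted p of 0.569. AFFN1 1 and control 1, the libraries with high Ly6a, lay at opposite ends for both genes, since AFFN1 1 was the lowest AFFN1 library and control 1 the highest control library. The part of Ly6a-expressing cells in these values was not tested.

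Of the 8 genes, 2 passed the filter on day 14, Hoxa7 and Hoxa9. Neither was called in BN1 against control, where 0.0257% of all tested genes were called, in AFFN1 against control, where 0.0429% were, or in BN1 against AFFN1, where 0% were. With the replicate number as a block, which pairs the day 14 libraries, neither gene was called either, while 11.6%, 0.558% and 0.18% of all tested genes were, in the same order. The lowest adjusted p of the members in that fit was 0.283, for Hoxa9 in BN1 against AFFN1. DESeq2 called neither of them in these comparisons. At an unadjusted p under 0.05, edgeR gave neither against control and Hoxa9 alone in BN1 against AFFN1. Over all genes, edgeR gave 992 genes at an unadjusted p under 0.05 in BN1 against AFFN1, and DESeq2 called 90.

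The low members kept reads mainly in BN1 on day 14. Hoxa4 had 0, 3 and 4 reads and Hoxa6 likewise 0, 3 and 4 reads in BN1, against none in any AFFN1 or control library. With 7 reads over the group, each was 2.29-fold above control and 2.26-fold above AFFN1 by the floor of 3 reads. BN1 1 had 0 reads of both genes, as had every control and AFFN1 library, so the groups overlapped. With no filter, edgeR called neither gene (adjusted p = 0.363 against control and 0.774 against AFFN1, for each). Hoxa5 had 3, 14 and 10 reads in BN1, 0, 0 and 2 in AFFN1 and 3, 2 and 5 in control. The ratio of scaled Hoxa5 reads was 2.65 for BN1 to control (1.24 to 6.14) and 13.1 for BN1 to AFFN1 (3.29 to 114). Hoxa3 had 1, 6 and 12 reads in BN1, 0, 2 and 4 in AFFN1 and 2, 6 and 4 in control. Hoxa10 had 0 reads in all 9 libraries, and Hoxa2 had 1 read in BN1, 0 in AFFN1 and 2 in control. In BN1 the library numbered 1 was the lowest for Hoxa3, Hoxa4, Hoxa5, Hoxa6, Hoxa7 and Hoxa9.

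Set against day 6, tested members were called higher in control cells on day 14 and lower in the fusions, 1 of 4 in BN1 and 4 of 4 in AFFN1. These comparisons join libraries that may come from separate experiments. Hoxa3 and Hoxa5 did not pass the filter on the day 14 libraries alone. They entered these fits through day 6 fusion libraries, which favours lower fusion values on day 14. The counts of called members in the fusions are therefore descriptions. In control cells 3 of the 4 tested members were called higher on day 14 than on day 6, where 22.4% of all tested genes were. Hoxa7 had a log2 fold change of 2.40 (SE 0.67, adjusted p = 0.00951) and Hoxa9 one of 2.15 (SE 0.71, adjusted p = 0.0224), while the Hoxa9 groups overlapped. Hoxa5 had 10 reads on day 14 and 1 on day 6, a ratio of 11.1 (1.58 to 483), with adjusted p = 0.0362. The calls hung on single libraries. Without control 1 of day 14 none of the 3 was called, with log2 fold changes of 1.60 for Hoxa7, 1.15 for Hoxa9 and 3.15 for Hoxa5, and without control 2 or control 3 of day 6 Hoxa7 alone was. Without control 3 of day 14 Hoxa5 was not called (adjusted p = 0.117), and without control 1 of day 6 the value of Hoxa7 was 3.12.

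In AFFN1 all 4 tested members were called lower on day 14 than on day 6, where 23.5% of all tested genes were called lower. Hoxa3 and Hoxa5 are among them, so the count is a description. The log2 fold change was -4.57 for Hoxa9 (SE 0.60, adjusted p = 1.83e-05), -2.01 for Hoxa7 (SE 0.59, adjusted p = 0.0112) and -5.03 for Hoxa5 (adjusted p = 0.000164). Hoxa3 had -3.03 (adjusted p = 0.0161), a call lost without AFFN1 1 of day 6 (0.0520), AFFN1 1 of day 14 (0.0564) or AFFN1 2 of day 14 (0.05003). Without AFFN1 3 of day 14 the values were -7.80 for Hoxa5, -4.01 for Hoxa3 and -2.68 for Hoxa7. Hoxa6, with 0 reads on day 14 and 14 on day 6, was 4.08-fold lower on day 14 by the floor of 3 reads. Hoxa10, with 0 reads on day 14 and 13 on day 6, was 3.79-fold lower by the same floor.

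In BN1 Hoxa9 alone of the 4 was called lower on day 14 than on day 6, where 24% of all tested genes were. Its log2 fold change was -2.56 (SE 0.52, adjusted p = 0.000938), and -3.20 without BN1 3 of day 14. Hoxa7 had 4.5 to 11.0 CPM on day 14 and 8.22 to 16.6 CPM on day 6, so the days overlapped (log2 fold change -0.68, SE 0.56, adjusted p = 0.336). Hoxa5 had -1.10 (adjusted p = 0.144) and Hoxa3 -0.49 (adjusted p = 0.659). Hoxa10 had 0 reads in BN1 on day 14 and 16 on day 6, and was 4.77-fold lower by the floor of 3 reads. Hoxa4 had 7 reads on day 14 and 1 on day 6, a ratio of 7.82 (1.01 to 353, counting error only). The days overlapped, and Hoxa4 was called neither by edgeR with no filter (adjusted p = 0.257) nor by DESeq2 (adjusted p = 0.557).

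Whether the effect of each fusion changed between the days was tested as an interaction. The same limit holds here for Hoxa3 and Hoxa5, which entered the fit through day 6 fusion libraries. The AFFN1 effect against control was lower on day 14 than on day 6 for 3 of the 4 tested members, where 0.732% of all tested genes were called lower. The difference was -6.72 on the log2 scale for Hoxa9 (SE 0.91, adjusted p = 0.00071), -8.08 for Hoxa5 (adjusted p = 0.00574) and -4.42 for Hoxa7 (adjusted p = 0.0195). The BN1 effect was lower on day 14 for 1 of the 4, where 1.04% of all tested genes were: Hoxa9 had -4.70 (SE 0.87, adjusted p = 0.00483). For BN1 the other values were -3.08 for Hoxa7 (adjusted p = 0.0804), -4.16 for Hoxa5 (0.104) and -2.49 for Hoxa3 (0.529). The Hoxa5 values rest on 1 control read on day 6. The AFFN1 call of Hoxa7 was lost without AFFN1 1 (0.0536), control 2 (0.0592) or control 3 (0.0653) of day 6. Without control 1 of day 14 the Hoxa9 value was -5.72 for AFFN1 and -3.70 for BN1, and both stayed called. Without BN1 3 of day 14 the BN1 value of Hoxa9 was -5.35. The AFFN1 value of Hoxa7 was -5.13 without control 1 of day 6, -5.08 without AFFN1 3 of day 14 and -3.61 without control 1 of day 14. The AFFN1 value of Hoxa5 was -9.91 without control 1 of day 6 and -10.86 without AFFN1 3 of day 14.

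**Figure D3:**
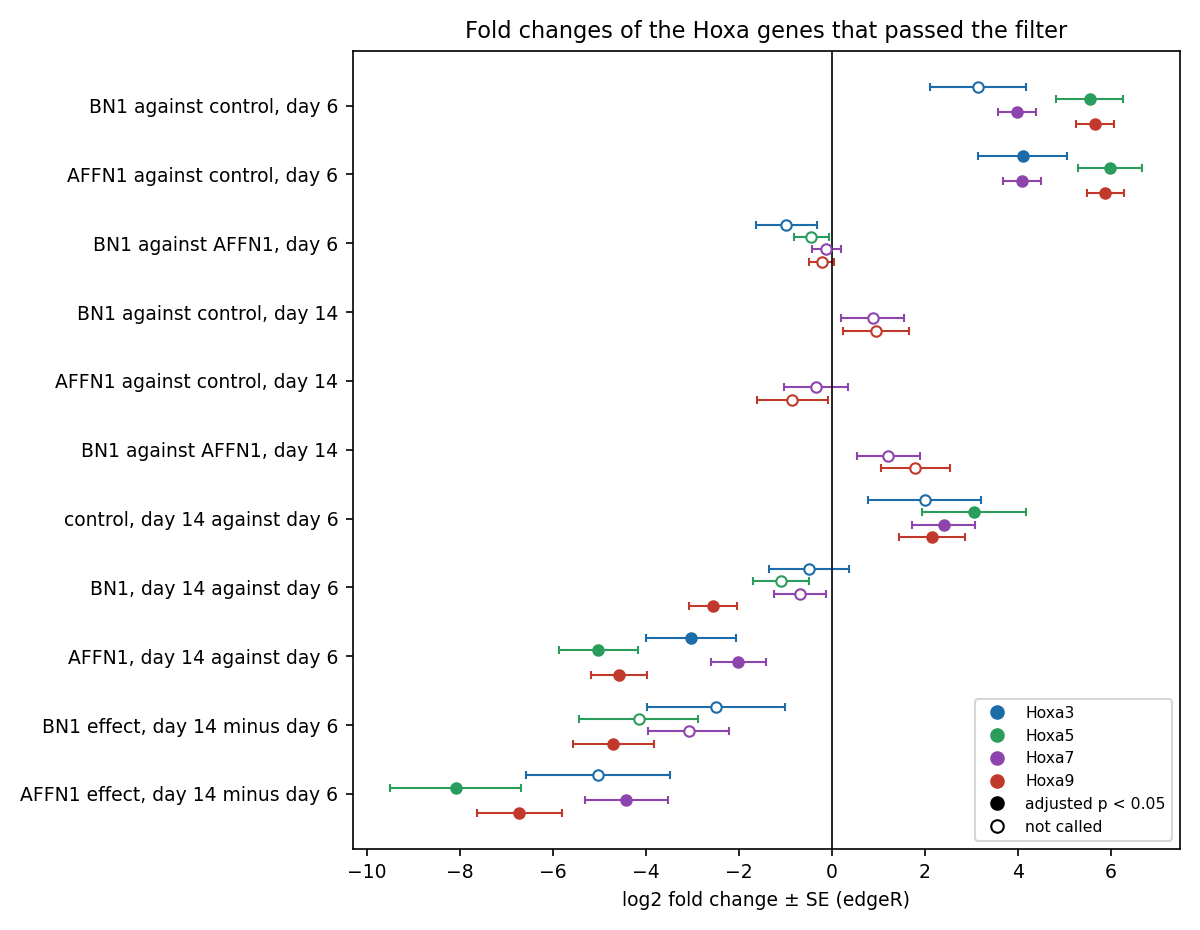
log2 fold change ± SE (edgeR) of the Hoxa genes that passed the filter, with the compared groups down the page. Filled points had an adjusted p under 0.05 over all tested genes and open points did not. On day 6 the points of both fusions against control lie between 3.13 and 5.98, and on day 14 between -0.85 and 0.95 against control.

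Ordered by mean level, Hoxa9 was highest in AFFN1 on day 6 (14.7 ± 2.11 CPM; SD, n = 3 in each group) and next in BN1 on day 6 (12.7 ± 4.65 CPM). It was far lower in BN1 on day 14 (2.15 ± 1.36 CPM), control on day 14 (1.09 ± 0.987 CPM) and AFFN1 on day 14 (0.615 ± 0.225 CPM), and lowest in control on day 6 (0.238 ± 0.104 CPM). Of neighbours in this order, BN1 on day 6 and BN1 on day 14 did not overlap, nor did AFFN1 on day 14 and control on day 6. Hoxa7 followed the same order, at 13.0 ± 1.48, 12.0 ± 4.23, 7.5 ± 3.26, 4.01 ± 2.98, 3.23 ± 2.37 and 0.757 ± 0.520 CPM, and all neighbours overlapped. Hoxa5 also had this order, with 1.62 ± 0.264 CPM in AFFN1 on day 6, 1.19 ± 0.437 CPM in BN1 on day 6 and 0.0186 ± 0.0323 CPM in control on day 6, and all neighbours overlapped. The 8 genes summed gave 35.7, 28.3 and 17.1 CPM in BN1, 35.7, 29.8 and 27.8 CPM in AFFN1 and 1.85, 0.835 and 0.650 CPM in control on day 6. On day 14 the sums were 6.01, 10.2 and 16.6 CPM in BN1, 1.27, 4.06 and 6.75 CPM in AFFN1 and 9.91, 2.68 and 4.24 CPM in control.

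Levels of different genes were compared per kilobase of exon, over the union of annotated exons. On day 6, Hoxa7 was at 4.17 CPM per kilobase in BN1 and 4.52 in AFFN1, Hoxa9 at 2.27 and 2.64, and Hoxa5 at 0.633 and 0.862, with BN1 before AFFN1 throughout. Hoxa6 was at 0.303 and 0.297 CPM per kilobase, Hoxa3 at 0.0903 and 0.182 and Hoxa10 at 0.0868 and 0.0738. Per kilobase of coding length the order of Hoxa7 and Hoxa9 turned round in both fusions on day 6, with log2 ratios of Hoxa7 to Hoxa9 of -0.34 in BN1 and -0.44 in AFFN1. Which of the 2 is higher per length therefore depends on the length used.

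Within a gene pair the length cancels between groups if the groups use the same transcripts of each gene, which was not tested. With this assumption the balance of Hoxa9 and Hoxa7 was set side by side as a share of reads. This share was chosen after its values were seen. On day 6 Hoxa9 made up 47.8, 58.2 and 47.1% of the reads of Hoxa7 and Hoxa9 in the BN1 libraries and 54.0, 52.0 and 53.2% in AFFN1, against 20, 18.2 and 41.7% in control. On day 14 it made up 21.3, 17.9 and 25.3% in BN1 and 28.6, 20.3 and 10.8% in AFFN1, against 22.6, 11.1 and 24.5% in control. The fusion libraries of day 6 were all above every other library, while the control libraries of day 6 hold only 11 to 30 reads each. The mean share in BN1 on day 6 was 24.4 percentage points above control and in AFFN1 26.4 points above control. Each gave a p of 0.1 in a two-sided exact permutation test, the smallest that 3 against 3 allows, and 0.175 adjusted over 7 comparisons. On day 14 the differences from control were 2.06 points in BN1 (exact p = 0.8) and 0.452 points in AFFN1 (exact p = 1). The mean share on day 14 minus that on day 6 was -29.5 points in BN1 and -33.2 points in AFFN1 (exact p = 0.1 each), and -7.19 points in control (exact p = 0.6).

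**Figure D4:**
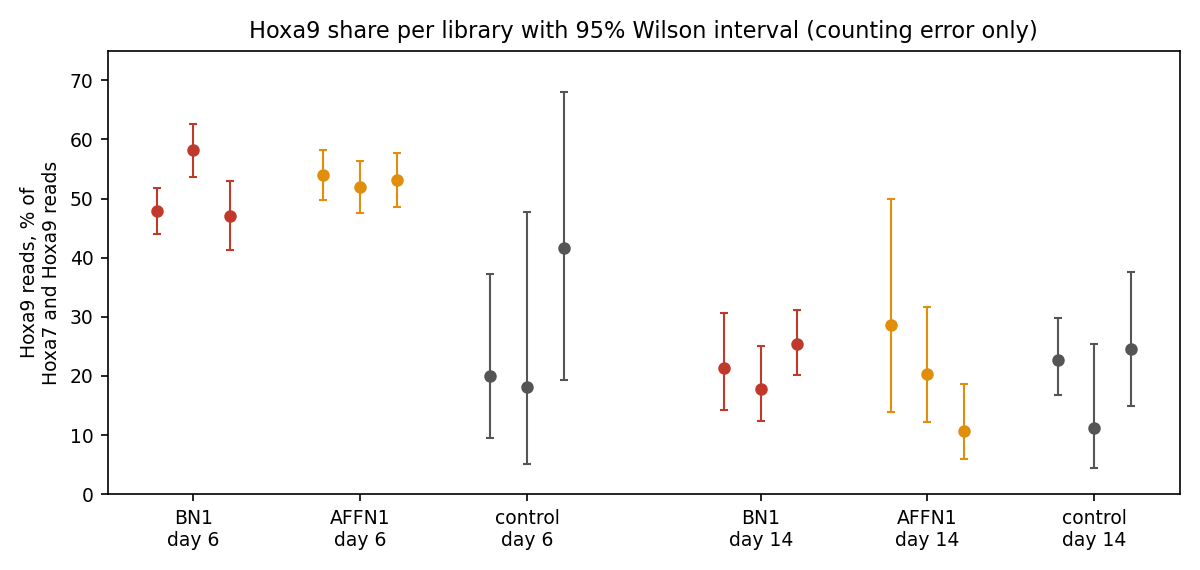
Hoxa9 reads as a percentage of the reads of Hoxa7 and Hoxa9 in each library, with 95% Wilson intervals that cover counting error only. The 6 fusion libraries of day 6 lie between 47.1 and 58.2%, and all other libraries at or under 41.7%.

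The genes whose pattern over the 18 libraries was most like that of Hoxa9 were found by the mean absolute difference of centred log2 CPM over 12566 other genes. Hoxa5 came first (0.83) and Hoxa7 had rank 4 (0.90), while Hoxa3 had rank 55 (1.26). Of genes outside the cluster, the zinc finger gene Zfp518b (0.87), the gene model Gm10863 (0.87), Klhl22 (0.92), Meis1 (0.95) and Mtss2 (0.98) were nearest. Meis1 had 20.4, 14.4 and 11.5 CPM in BN1, 19.5, 19.5 and 16.2 CPM in AFFN1 and 3.64, 3.08 and 1.70 CPM in control on day 6. On day 14 it had 1.09, 1.65 and 3.22 CPM in BN1, 0.242, 0.246 and 0.681 CPM in AFFN1 and 0.423, 0.122 and 0.862 CPM in control. Unlike Hoxa7 and Hoxa9, Meis1 was lower in control on day 14 than on day 6 (log2 fold change -2.58, adjusted p = 0.00104). Zfp518b averaged 8.02 CPM in BN1, 6.32 in AFFN1 and 0.218 in control on day 6.

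Of the other Hox clusters, Hoxb4 alone passed the filter. Of 28 Hoxb, Hoxc and Hoxd genes, 1 was tested on day 6, and it was higher in AFFN1 than in control (4.09 ± 0.343 against 2.12 ± 0.332 CPM; log2 fold change 0.94, adjusted p = 0.0182). In BN1 it averaged 1.85 ± 0.270 CPM and was not called against control, and it was lower in BN1 than in AFFN1 (log2 fold change -1.14, adjusted p = 0.00734). On day 14 Hoxb4 had 5.53, 5.02 and 5.83 CPM in BN1, 4.18, 3.44 and 4.02 CPM in AFFN1 and 2.96, 5.30 and 6.70 CPM in control, and it was called in none of the 3 comparisons. It was higher on day 14 than on day 6 in BN1 (log2 fold change 1.55, adjusted p = 0.000204) and in control (1.23, adjusted p = 0.00146). For the lists that follow, 8.83% of all tested genes were called higher and 8.53% lower in BN1, and 7.79% higher and 4.87% lower in AFFN1. Of the 11 TALE genes, 8 were tested on day 6 and 3 were higher and 0 lower in each fusion. Meis1 had log2 fold changes of 2.46 in BN1 and 2.71 in AFFN1, and Pbx2, a Pbx family partner, 0.42 and 0.36. Pbx3 was called in BN1 (0.84) and Meis3 in AFFN1 (2.78). The median of the 8 was 0.40 in BN1 and 0.37 in AFFN1, beside -0.02 over all tested genes.

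Among 15 polycomb genes, all tested, 6 were higher and 2 lower in BN1 and 3 higher and 0 lower in AFFN1 on day 6, with medians of 0.13 and -0.01. Phf19, a subunit that helps bring polycomb complex 2 to its targets, had log2 fold changes of 4.07 in BN1 and 3.16 in AFFN1. Ezh2, the methyltransferase of that complex, was lower in BN1 (log2 fold change -0.69, adjusted p = 0.000376). Of 11 tested trithorax genes, Mllt10 alone was called, higher in BN1 (0.29, adjusted p = 0.0343), a share near that of all genes, and none was called in AFFN1. Of 7 tested neighbours of the cluster on its chromosome, 1 was higher and 1 lower in each fusion. Creb5 was lower in both (-1.53 in BN1 and -1.91 in AFFN1), Hibadh was higher in BN1 (0.31) and Skap2 in AFFN1 (0.58, adjusted p = 0.0454). Of 11 tested genes known from other studies as Hoxa9 targets, 4 were higher and 0 lower in each fusion, with medians of 0.15 and 0.07. Meis1, which is also on the TALE list, is 1 of the 4 in each. Flt3, a receptor of early progenitors, had 1.21 in BN1 and 1.84 in AFFN1. Igf1, a growth factor, was called in BN1 (2.77), and Eya1, a transcriptional cofactor, in AFFN1 (2.68). On day 14 no gene of these lists was called in any of the 3 comparisons without the block. With the block, BN1 against control had 2 of 8 TALE genes higher, Meis1 (2.11, adjusted p = 0.0283) and Tgif1 (0.58), and 2 of 11 trithorax genes higher, Kmt2a (0.69) and Aff4 (0.52). Of the polycomb genes Phf19 was lower (-1.05, adjusted p = 0.0124). Of the 11 Hoxa9 targets 4 were higher and 1 lower, among them Meis1 again, Igf1 (3.35, adjusted p = 0.0113) and Bcl2 (-1.65). These shares stand beside 11.6% of all genes called in that fit. In AFFN1 against control and in BN1 against AFFN1 no gene of these lists was called with the block.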

How the data were processed

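The authors deposited expected counts per gene, 1 column a library. STAR, RSEM and DESeq2 were used with the mm10 build, per the submitters' processing notes. No tool version, annotation or strand setting is given in the sources used here. A stranded kit was used after column purification, per the labels' protocols. Between 1.74 and 2.12% of the values of a library were not whole, none of them among the 144 values of the 8 genes, and expected counts were rounded to whole numbers. Of all gene identifiers, 32158 (99.6%) were found in GENCODE M21, which gave coordinates and exon lengths.

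Genes were filtered with filterByExpr, scaled by TMM and compared with the robust quasi-likelihood test of edgeR 4.0.16 in R 4.3.3. The p-values were two-sided and Benjamini-Hochberg adjusted over all tested genes, with calls made at an adjusted p under 0.05. Fits within a day used its 9 libraries, and fits across days and interactions all 18, in 11 comparisons. CPM are counts per 1e6, scaled by TMM over all 18 libraries. A group without reads was set to a floor of 3 reads over the group, and read ratios have exact 95% intervals. Intervals cover counting error only. A floor allows for counting error in the empty group alone, so a fold against it is not a lower limit. DESeq2 1.42.0, RLE scaling, no filter, all libraries in the fit, libraries left out and the replicate number as a block were tried as alternatives. The test was tested on simulated data.

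The labels do not say that replicates came from separate animals or cultures, so p-values measure only how far these samples spread, and that spread may be technical. No 2 libraries of a group were within counting noise of each other. Equal replicate numbers were taken as pairs on day 14, where the descriptions of libraries with the same number share a code. There the deviations from the group means of all 9 same-number pairs correlated at 0.291 to 0.614, and those of the 18 others at -0.503 to 0.0142. On day 6, same-number pairs correlated at -0.321 to 0.351 and others at -0.360 to 0.395, and the numbers were not taken as pairs.

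The members and gene lists were chosen with earlier results of these data known. The text names the 8 genes, other rows within the cluster, the 5 genes nearest to Hoxa9 in pattern and up to 3 called members of each list with the largest changes per comparison. Marker genes, and values of these genes in other comparisons, were added after their values were seen. Some results are not reported here.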

Additional observations from a re-analysis of the deposited data

Results flagged for a closer look

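In 4 results a fusion's effect against control differed between day 14 and day 6 by the interaction test of edgeR, and these are the values. The AFFN1 effect on day 14 minus that on day 6 was -6.72 on the log2 scale for Hoxa9, -8.08 for Hoxa5 and -4.42 for Hoxa7. The BN1 effect on day 14 minus that on day 6 was -4.70 for Hoxa9. Each rests on a lower fusion level and a higher control level on day 14, and day and experiment cannot be told apart. Groups of 3 libraries are too small for a search for single libraries that stand apart.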

How the results depend on the processing

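Of 129 recounts of the called Hoxa genes under alternatives, 122 stayed within 1.5 times the first count, where 3 against 4 passes as the same. In BN1 against AFFN1 on day 6 and in the day 14 comparisons the first count was 0. Recounts of 0 there are among the 122, so this number says little of how firm the calls are. In BN1 against control on day 6, DESeq2 called 5 members, adding Hoxa3 and Hoxa6. In AFFN1 against control on day 6, DESeq2 also added Hoxa6 (adjusted p = 0.0297). With no filter, edgeR added Hoxa6 in both fusions (adjusted p = 0.0323 in BN1 and 0.0424 in AFFN1). In BN1 on day 14 against day 6, 2 were called with no filter and 2 by DESeq2, adding Hoxa10. In AFFN1 on day 14 against day 6, Hoxa10 was likewise added by edgeR with no filter (adjusted p = 0.0176) and by DESeq2 (0.0499). Hoxa6 was added there by edgeR with no filter (adjusted p = 0.0279) and not by DESeq2 (0.0559). DESeq2 called 2 for the BN1 effect, adding Hoxa7 (adjusted p = 0.00672). With libraries left out one at a time, the count ran from 3 to 4 in BN1 against control and in AFFN1 against control on day 6, from 3 to 4 in AFFN1 on day 14 against day 6, and from 2 to 3 for the AFFN1 effect. In control on day 14 against day 6 it ran from 0 to 3. The other comparisons kept their counts.

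Directions turned only in differences that were not called. With libraries left out one at a time, the log2 value of BN1 against AFFN1 on day 6 ran from -0.43 to 0.091 for Hoxa7 and from -0.39 to 0.057 for Hoxa9, each highest without BN1 3. It was 0.027 for Hoxa7 without the 3 libraries numbered 3. AFFN1 against control on day 14 ran from -0.99 to 0.48 for Hoxa7 (0.11 without AFFN1 1) and from -1.31 to 0.16 for Hoxa9, each highest without control 1. Without the 3 libraries numbered 1 it gave 0.91 for Hoxa7 and 0.41 for Hoxa9. Hoxa3 in BN1 on day 14 against day 6 ran from -1.34 to 0.75, the highest without BN1 1 of day 6, and was 0.013 without BN1 1 of day 14. The difference of the Hoxa9 share from control on day 14 ran from -2.10 (without control 2) to 4.61 points in BN1. In AFFN1 it ran from -3.89 (without AFFN1 1) to 5.01 points and was -3.71 points without control 2. In control, day 14 minus day 6, it ran from -11.4 to 0.336 points, the last without control 3 of day 6. The log2 ratio of Hoxa7 to Hoxa9 per kilobase was -0.34 in BN1 and -0.44 in AFFN1 on day 6 with the coding length. The cause was not tested.

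With the replicate block, the called members were again 3, 4 and 0 on day 6 and 0, 0 and 0 on day 14 (BN1 against control, AFFN1 against control, BN1 against AFFN1). Over all genes the block gave 1349, 65 and 21 calls on day 14, against 3, 5 and 0 without it. All-gene counts on day 14 were 642, 83 and 90 by DESeq2, 691, 51 and 76 with all 18 libraries in the fit and 17, 25 and 5 with no filter. With RLE scaling BN1 against control gave 5, and without the libraries numbered 1 the comparisons with control gave 18 and 11. On day 6 the 18-library fit gave 1033, 676 and 625 calls, against 2095, 1528 and 1349. Without the libraries numbered 3 the comparisons with control gave 3890 and 3873. DESeq2 called 599 genes for the BN1 effect and 339 for the AFFN1 effect, against 373 and 183. Members with under 10 reads in a group are limited by depth.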
